A study of Mus musculus with 23 samples.

Results

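The collagen gene family was examined in mouse endometrium, the inner lining of the uterus, by bulk RNA sequencing of 23 uterine horns. The members were all genes whose mouse symbol has the form Col, a number, a and a number. The name table held 44 such symbols, and 40 of them were in the deposited table of 18682 features. Col2a1, Col9a1, Col19a1 and Col25a1 were not analysed here. Of the 40 genes, 39 passed the filter on low counts. Col13a1, a transmembrane collagen, did not pass, with a median of 2 reads per library and 0 reads in 9 libraries.

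The horns came from female C57BL/6 mice and formed 4 groups. In 6 HG+ORG horns, a hybrid hydrogel derived from endometrium and carrying human endometrial organoids was injected 4 days after uterine damage with 70° ethanol, a model of Asherman syndrome and endometrial atrophy. The 6 HG horns received the hydrogel alone at that time, and the 5 PBS horns received saline, both after the same damage. For the 6 SHAM horns, the labels give no treatment. The endometrium was pressed out of each horn 2 weeks after injection. The design text counts 21 mice for this time point against 23 horns, so by that count some horns share a mouse. The labels do not say which, so the tests treat horns as independent, and p-values measure the spread between horns.

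Collagens are proteins of 3 chains wound into a triple helix, and each gene encodes 1 kind of chain. The fibrillar collagens, led by types I and III, form the load-bearing fibres of connective tissue and are made mainly by fibroblasts and other stromal cells. Type IV collagens form the sheet-like network of basement membranes under epithelia and around vessels and muscle cells, and type VI collagens form beaded filaments between basement membranes and the interstitial matrix. In the uterus, excess fibrillar collagen is the hallmark of scarring after injury, while the normal endometrium also remodels its collagen through each cycle and pregnancy. RNA levels do not measure the deposited protein.

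Total counts ranged from 7920918 to 14902952 per library, with a median of 12701407. All 14 uterine epithelium markers were detected, with a summed level of 1735 to 37360 CPM (reads scaled to the size of the library) across the horns. The horn HG+ORG replicate 18 stood apart. It had the lowest summed epithelial level, 1735 CPM, against 7329 to 35040 CPM in the other HG+ORG horns, and the highest summed level of 14 macrophage and monocyte markers, 22920 CPM, against 280 to 2418 CPM in the other HG+ORG horns. Its adipocyte markers summed to 4801 CPM, of which Lpl gave 3988 and Fabp4 629 CPM, while Adipoq and Plin1, which mark fat cells more narrowly, had 0.866 and 0.619 CPM. In HG replicate 12 the list summed to 15860 CPM, with 1150 CPM of Adipoq and 552 CPM of Plin1. Results that rest on HG+ORG replicate 18 are therefore given with and without it. The 14 smooth muscle markers, which the myometrium and vessel walls share, summed to 37.8 to 558 CPM in HG+ORG horns, 136 to 3842 CPM in HG horns, 34.3 to 1892 CPM in PBS horns and 66.1 to 158 CPM in SHAM horns. The part of these cell types in the collagen levels was not tested. In bulk tissue, fewer cells of a type and less RNA per cell cannot be told apart.

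Collagen RNA made up a small share of each library, and the share differed more between horns of 1 group than between most groups. It was 0.0301 to 1.09% of counts in HG+ORG horns with a median of 0.0799%, and 0.0560 to 0.696% in HG horns with a median of 0.541%. The 5 PBS horns had 0.122, 0.0546, 0.0295, 0.669 and 0.0611%, and the SHAM horns 0.0403 to 0.171% with a median of 0.0563%. Shares above 0.4% were found in 1 of 6 HG+ORG horns, 4 of 6 HG horns, 1 of 5 PBS horns and 0 of 6 SHAM horns. The high horns were HG+ORG replicate 18, HG replicates 13, 14, 16 and 17 and PBS replicate 10. The share of HG+ORG replicate 18 was 1.09% (95% Wilson interval 1.08 to 1.09%, counting error only) and that of PBS replicate 10 was 0.669% (0.664 to 0.674%). The same 6 horns had smooth muscle sums of 558, 1506, 476, 3842, 1845 and 1892 CPM and endothelial sums of 874, 332, 1080, 713, 609 and 925 CPM, in that order. The other 17 horns had at most 691 CPM of smooth muscle and 764 CPM of endothelial markers, both in PBS replicate 7. Both lists thus overlapped between the 6 horns and the other 17. Endometrial stroma markers summed to 8030, 1953, 2297, 1800, 2024 and 2142 CPM in the 6 horns, in the same order. In the other 17 horns the stromal sum was at most 1431 CPM, also in PBS replicate 7, so the stromal sums did not overlap. The part of stromal cells in the collagen share was not tested. All groups overlapped in the collagen share.

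**Figure D1:**
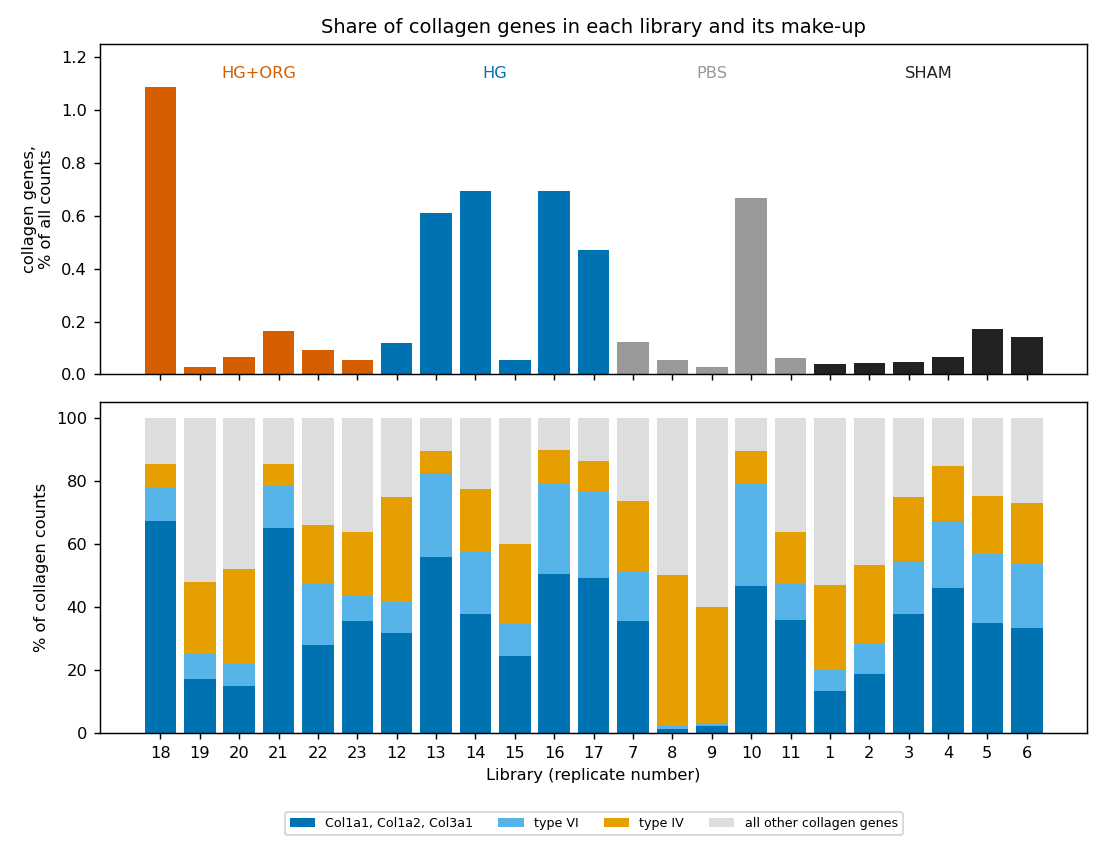
Collagen share of all counts in each library (upper bars, percent) and the make-up of those collagen counts (lower bars, percent), with HG+ORG, HG, PBS and SHAM horns from left to right. The share reached 1.09% in HG+ORG replicate 18 and 0.669% in PBS replicate 10, and PBS replicates 8 and 9 drew 1.26 and 2.11% of their collagen counts from Col1a1, Col1a2 and Col3a1.

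The mixture of collagens also differed between horns. Col3a1 took the most collagen counts in 14 libraries, Col4a5 in 6, Col5a2 in 2 and Col18a1 in 1. Type I and III chains (Col1a1, Col1a2 and Col3a1) gave 67.3% of collagen counts in HG+ORG replicate 18, but 1.26 and 2.11% in PBS replicates 8 and 9. In those 2 PBS horns Col4a5 and Col4a6, which encode a pair of type IV chains, gave 42.5 and 31.5% of collagen counts, against 0.0774% in HG+ORG replicate 18. Per kilobase of transcript, the median level over all horns was highest for Col3a1 at 24.5 CPM per kb, followed by Col1a2 at 15.1, Col1a1 at 12.7, Col6a2 at 11.7, Col6a1 at 11.5 and Col4a5 at 11.0 CPM per kb. Within horns, Col3a1 was above Col1a1, Col6a1 and Col6a2 per kilobase in 23 of 23 horns, above Col1a2 in 21 and above Col4a5 in 17. The next places were less separated: Col1a2 was above Col1a1 in 13 of 23 horns, and Col6a1 was above Col4a5 in 12.

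**Figure D2:**
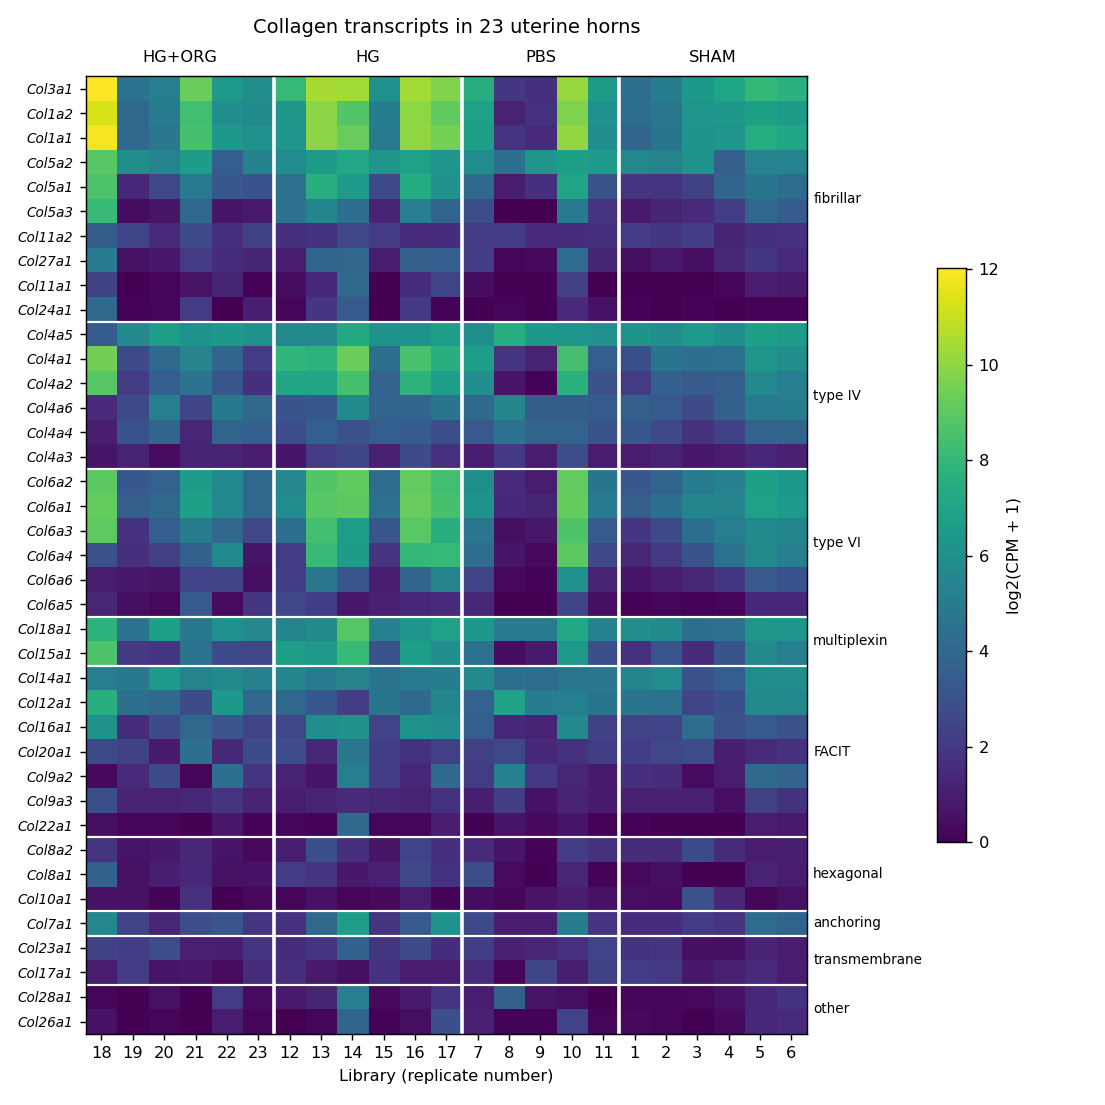
Level of 39 collagen genes, as log2(CPM + 1) in colour, in 23 horns (columns, replicate number below, HG+ORG, HG, PBS and SHAM from left to right), with genes grouped by class and ordered by median level per kb. Col1a1, Col1a2, Col3a1, Col6a1, Col6a2 and Col6a3 are bright together in HG+ORG replicate 18, in HG replicates 13, 14, 16 and 17 and in PBS replicate 10, while Col4a5 lies between 49.1 and 179 CPM in every horn but HG+ORG replicate 18.

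The fibrillar class varied widely between horns. Col1a1, a chain of type I collagen, ran from 15.5 to 3714 CPM in HG+ORG horns with a median of 74.2 CPM, and from 29.1 to 1050 CPM in HG horns with a median of 674 CPM. It had 110, 2.63, 1.69, 1068 and 62.5 CPM in PBS replicates 7 to 11 and 13.7 to 171 CPM in SHAM horns, with a median of 74.5 CPM. The HG+ORG and SHAM medians were thus nearly the same, the HG median was the highest, and all 4 groups overlapped. Col3a1, the type III chain of flexible tissues, had 23.2 to 4172 CPM in HG+ORG horns with a median of 74.9 CPM and 63.9 to 1391 CPM in HG horns with a median of 1078 CPM. It had 181, 2.76, 2.17, 1167 and 91.5 CPM in the PBS horns and 19.0 to 254 CPM in SHAM horns, with a median of 110 CPM. Its order across horns was close to that of Col1a1. Col1a2, the second chain of type I collagen, had a median of 54.5 CPM in HG+ORG horns, 501 CPM in HG horns, 66.5 CPM in PBS horns and 80.3 CPM in SHAM horns.

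Type V chains, which start and limit the growth of type I fibrils, did not all follow this order. Col5a1 ran from 1.49 to 401 CPM in HG+ORG horns, 5.50 to 184 CPM in HG horns, 0.876 to 131 CPM in PBS horns and 2.54 to 24.2 CPM in SHAM horns. Col5a2, its usual partner and the neighbour of Col3a1, varied less. It had 11.0 to 477 CPM in HG+ORG horns with a median of 50.1 CPM, and 55.6 to 143 CPM in HG horns with a median of 86.7 CPM. In PBS horns Col5a2 had 56.7, 19.8, 75.4, 113 and 89.8 CPM, and in SHAM horns 11.5 to 69.6 CPM with a median of 40.7 CPM. PBS replicate 9, at the bottom for Col1a1, was therefore in the middle of its group for Col5a2.

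The sequences just before the start sites of Col1a2 and Col3a1 are shown because these genes vary together over the horns. RefSeq promoter windows on build GRCm38.p6 were matched for 32 of the 40 genes. The 120 bases before the start carry the letters CCAAT in Col1a2 (chr6:4505498-4505617, plus strand) and the letters TATAAA in Col3a1 (chr1:45311418-45311537, plus strand), in capitals. Counted back from the start, where the base just before it is −1, the CCAAT match begins at −109 and the TATAAA match at −117, so the Col3a1 letters lie well before the place of a TATA box near a start site:
Col1a2: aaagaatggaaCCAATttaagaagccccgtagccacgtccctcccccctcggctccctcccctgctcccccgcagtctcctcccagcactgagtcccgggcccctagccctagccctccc
Col3a1: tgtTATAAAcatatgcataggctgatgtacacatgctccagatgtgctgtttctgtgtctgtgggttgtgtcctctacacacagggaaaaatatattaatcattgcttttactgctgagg
CCAAT, on either strand of the 250 bases before the start, was in 32.4% of 34 collagen windows and 33.8% of all 32851 windows. TATAAA was in 14.7% of the collagen windows and 12.4% of all windows, and GGGCGG in 61.8% of the collagen windows and 32.7% of all windows.

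The type IV genes lie in head-to-head pairs, and the pairs behaved differently. Col4a1 and Col4a2 encode the chains found in nearly all basement membranes, including those of vessels and muscle. Their start sites, chr8:11312826 for Col4a1 (minus strand) and chr8:11312805 for Col4a2 (plus strand), are 21 bases apart on build GRCm38.p6. The letters GGGCGG, known as a GC box, lie between them and so after the start of each gene. They are in capitals in the stretch that holds both starts (chr8:11312777-11312854, plus strand, 78 bases):
Col4a1 and Col4a2: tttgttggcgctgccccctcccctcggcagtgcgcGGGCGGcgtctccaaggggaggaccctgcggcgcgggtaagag
Col4a1 had 3.35 to 716 CPM in HG+ORG horns with a median of 14.8 CPM, and 20.2 to 633 CPM in HG horns with a median of 229 CPM. In the PBS horns it had 104, 2.49, 1.29, 361 and 11.1 CPM, and in SHAM horns 6.56 to 82.6 CPM with a median of 23.4 CPM. Apart from replicate 18, the HG+ORG horns reached at most 40.8 CPM, while 5 of 6 HG horns had 183 CPM or more, and the groups overlapped. The correlation between Col4a1 and Col4a2 over the 23 horns was r = 0.99 (Spearman's rho 0.99).

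Col4a5 and Col4a6, the chains of epithelial and smooth muscle basement membranes, had start sites 1343 bases apart and r = 0.84 (rho 0.73). Col4a5 was among the steadiest abundant collagens. It had 10.3 to 107 CPM in HG+ORG horns with a median of 70.0 CPM, and 49.1 to 156 CPM in HG horns with a median of 70.2 CPM. In the PBS horns it had 63.4, 179, 82.8, 78.7 and 65.9 CPM, and in SHAM horns 58.4 to 108 CPM with a median of 80.0 CPM. The 4 medians were close, and HG+ORG replicate 18, the highest horn for Col1a1 and Col4a1, was the lowest of all 23 for Col4a5. Col4a3 and Col4a4, chains best known from the kidney filter, inner ear and eye, varied separately (r = 0.29, rho 0.23). Over all horns the median was 1.17 CPM for Col4a3 and 9.37 CPM for Col4a4. Col4a3 had 0.273 to 1.26 CPM in HG+ORG horns and 0.640 to 5.74 CPM in HG horns, and 1.01, 3.10, 0.885, 6.35 and 0.915 CPM in the PBS horns, against 0.692 to 1.62 CPM in SHAM horns.

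Among the type VI genes, Col6a1, Col6a2 and Col6a3, whose products assemble into 1 molecule, followed Col1a1. Col6a1 had 11.6 to 573 CPM in HG+ORG horns, 22.5 to 599 CPM in HG horns, 1.37 to 582 CPM in PBS horns and 11.4 to 118 CPM in SHAM horns. The pair Col6a1 and Col6a2 had r = 0.997 (rho 0.994). Col6a4 and Col6a6, chains that can stand in for that of Col6a3, also varied together (r = 0.96, rho 0.95) but parted from Col1a1 in HG+ORG replicate 18. There Col6a4 had 6.81 CPM beside 3714 CPM of Col1a1, whereas PBS replicate 10 had 504 CPM of Col6a4 and HG replicates 13, 16 and 17 had 285, 258 and 265 CPM. Col6a3 was 533 CPM in HG+ORG replicate 18 and 425 CPM in PBS replicate 10.

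Collagens of the other classes had patterns of their own. Col15a1, a multiplexin of basement membranes around vessels and muscle, had 2.80 to 423 CPM in HG+ORG horns, 7.43 to 284 CPM in HG horns, 0.337 to 86.2 CPM in PBS horns and 1.88 to 49.5 CPM in SHAM horns, and tracked Col4a1 (r = 0.96, rho 0.96). Col18a1, the multiplexin that carries endostatin, was steadier, with 23.1 to 215 CPM in HG+ORG horns, 38.1 to 459 CPM in HG horns, 30.6 to 146 CPM in PBS horns and 19.4 to 82.8 CPM in SHAM horns. Col12a1 and Col14a1, FACIT collagens that sit on the surface of fibrils, followed neither Col1a1 nor each other (r = 0.23, rho 0.13). Col14a1 had 28.5 to 87.8 CPM in HG+ORG horns, 23.6 to 43.7 CPM in HG horns, 18.3 to 50.0 CPM in PBS horns and 6.92 to 60.5 CPM in SHAM horns. Within SHAM, replicates 3 and 4 had 6.92 and 11.2 CPM of Col14a1, below the other SHAM horns at 41.7 to 60.5 CPM. Col12a1 had 5.94 to 192 CPM in HG+ORG horns, 3.51 to 44.4 CPM in HG horns, 12.7 to 122 CPM in PBS horns and 4.64 to 50.4 CPM in SHAM horns. Col8a1, a network collagen of vessel walls, stayed at 0.445 to 12.5 CPM in HG+ORG horns, 0.788 to 5.15 CPM in HG horns and 0 to 6.42 CPM in PBS horns, against 0 to 1.29 CPM in SHAM horns. Col17a1, the collagen of hemidesmosomes in basal epithelial cells, was at most 4.75 CPM in any horn.

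**Figure D3:**
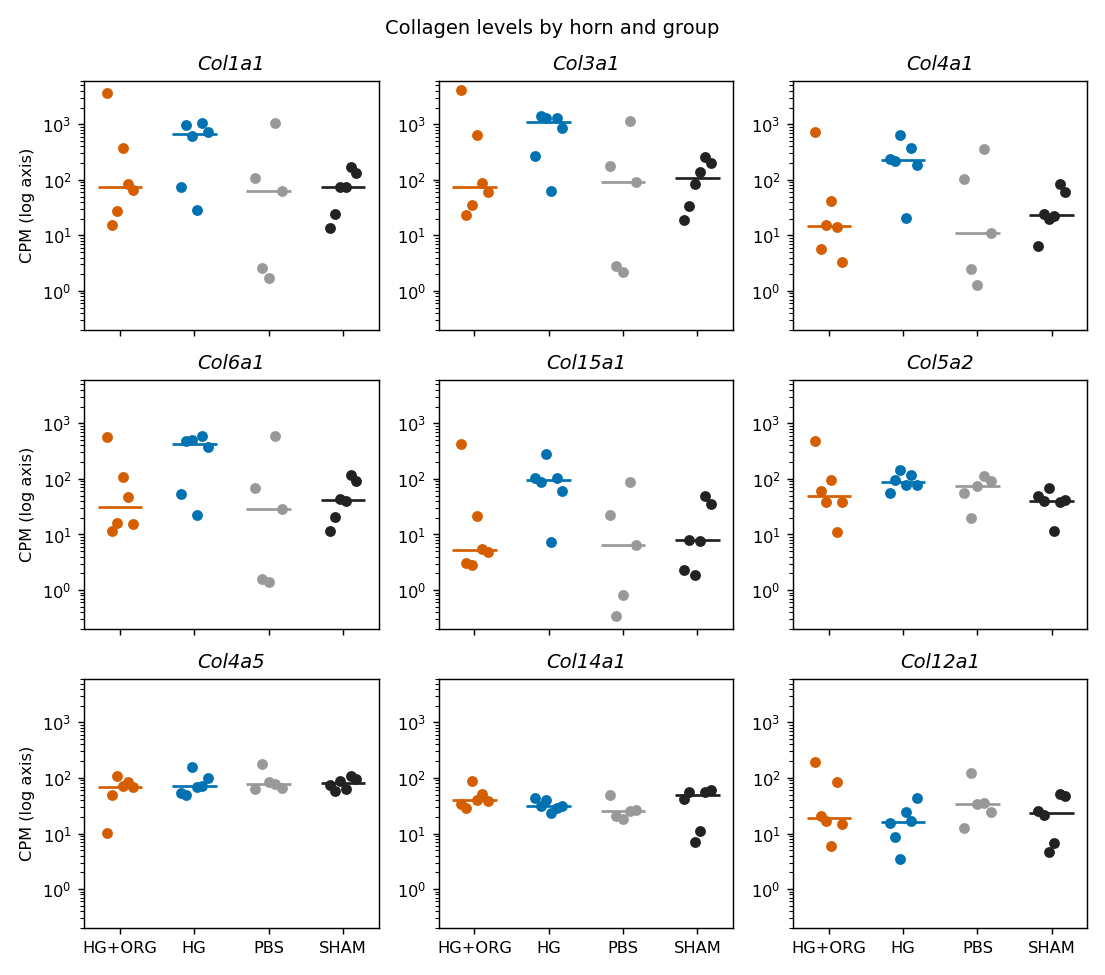
Level in CPM (log axis) of 9 collagen genes in each horn (points) with the group median (lines), for HG+ORG, HG, PBS and SHAM from left to right. Col1a1, Col3a1, Col4a1, Col6a1 and Col15a1 spread widely within groups and reach their HG medians above the other medians, whereas the Col4a5 medians of the 4 groups lie between 70.0 and 80.0 CPM.

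The spread between horns of the same group was larger for collagens than for most genes. The standard deviation of log2 CPM within groups had a median of 1.86 over the 39 collagens, against 0.56 over all 17708 tested features. All 39 collagens were above that overall median, 25 of them were above 90% of all features and 11 above 99%. By class the median was 2.38 for type VI, 2.11 for fibrillar and 1.10 for type IV genes. Col6a4 had a standard deviation of 2.89, Col6a3 2.71, Col5a3 2.71 and Col1a1 2.66, while Col11a2, a minor fibrillar chain, had 0.63, Col4a5 0.77 and Col14a1 0.81.

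The genes most like Col1a1 over the 23 horns, by Pearson's correlation of log2 CPM, were Col1a2 (r = 0.99), Rcn3 (0.99), Col3a1 (0.99), Col6a2 (0.98) and Col6a1 (0.98). Their Spearman coefficients were 0.98, 0.97, 0.97, 0.98 and 0.98. Rcn3 encodes a calcium-binding protein of the endoplasmic reticulum. All values come from the same libraries and share their depth and tissue make-up, so the coefficients are descriptions. With group means removed, r stayed at 0.99 for Col1a2, 0.99 for Col3a1 and 0.99 for Col6a1. Without the 2 horns farthest from the Col1a1 median, HG+ORG replicate 18 and PBS replicate 9, it was 0.99 for Col1a2, 0.98 for Col3a1 and 0.98 for Col6a1.

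Of the 38 other collagens, 10 had r above 0.9 with Col1a1, against 0.395% of all features, and 18 had r above 0.7, against 6.20% of all features. These 18 held all of type VI, 7 of the fibrillar genes, both of Col4a1 and Col4a2, Col7a1, Col15a1 and Col16a1. The 6 collagens with r below 0 were Col4a4 (−0.43), Col4a5 (−0.38), Col17a1 (−0.32), Col9a2 (−0.24), Col4a6 (−0.21) and Col12a1 (−0.09). For Col4a5 the value without the 2 farthest horns was −0.09, and for Col4a6 it was −0.03. The genes most like Col4a1 were Col4a2 (r = 0.99), Lama4 (0.98), Emcn (0.98), Tfpi (0.98) and Mcam (0.98). Lama4 encodes a laminin chain, Emcn endomucin, Tfpi a clotting inhibitor and Mcam a cell adhesion molecule. Their Spearman coefficients were 0.99, 0.98, 0.97, 0.98 and 0.97.

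**Figure D4:**
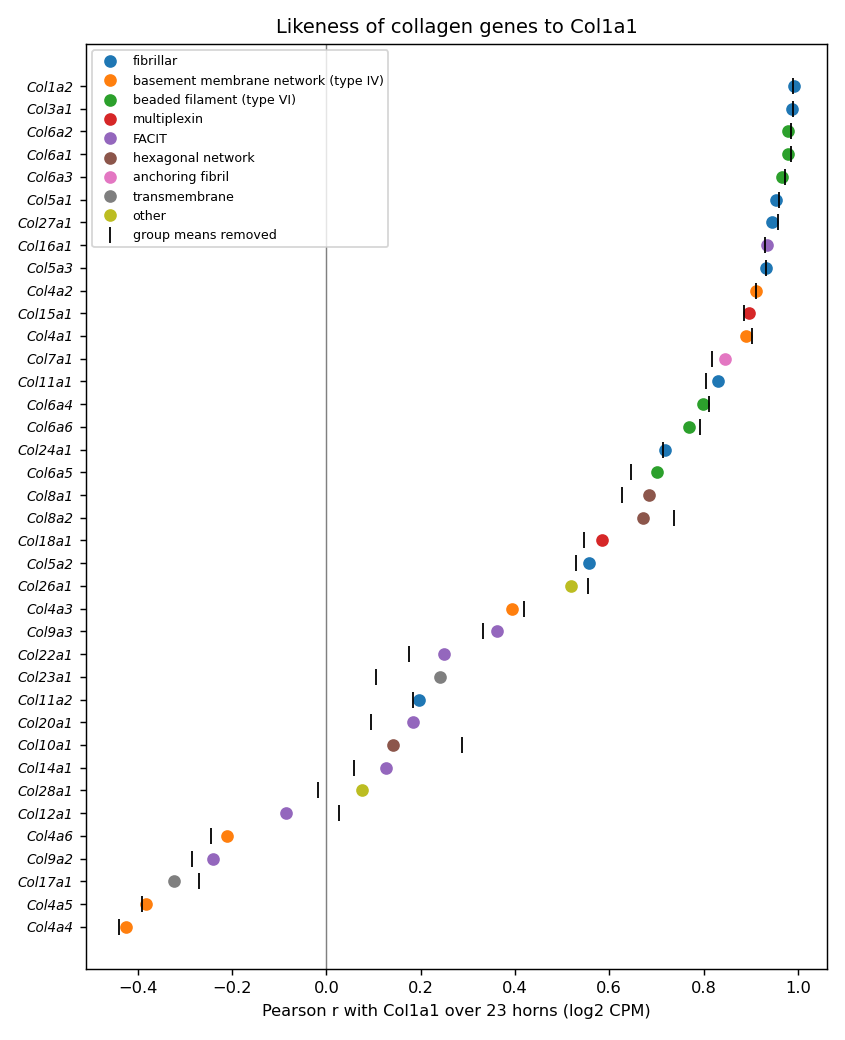
Pearson's r of each of 38 collagen genes with Col1a1 over 23 horns (points, coloured by class) and with group means removed (black ticks). Values run from 0.99 for Col1a2 to −0.43 for Col4a4, and the type IV genes fall at both ends, with Col4a1 at 0.89 and Col4a5 at −0.38.

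The 6 pairwise comparisons of groups were tested with edgeR's quasi-likelihood test with Benjamini-Hochberg adjustment over all 17708 features, and a gene was called at an adjusted p under 0.05. No collagen was called in any comparison, and neither was any other gene: 0 of 39 collagens, with 0.0% of all features called in each. Several comparisons share groups, so their values are given side by side and are not independent. In each comparison 0 of 39 collagens had groups that did not overlap, where the share of all features was 0.181% in HG+ORG against HG, 0.107% in HG+ORG against PBS, 0.152% in HG against PBS, 0.294% in PBS against SHAM, 1.43% in HG against SHAM and 0.164% in HG+ORG against SHAM.

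HG+ORG against HG asks what the organoids add to the hydrogel. Of 39 collagens, 12 had a fitted log2 fold above 0 (55.7% of all features did), and the median log2 fold was −0.46, against 0.04 over all features. Unadjusted p was under 0.05 for 8 collagens, 1 higher and 7 lower, where 9.81% of all features passed that level. All 6 type IV genes had a log2 fold below 0, with a median of −0.67, and so did 5 of 6 type VI genes, with a median of −1.44. Col4a3 had the smallest p, with a log2 fold of −1.67 (SE 0.55, edgeR adjusted p 0.281). Col11a2 had the smallest p among those with a log2 fold above 0, at 0.81 (SE 0.38, edgeR adjusted p 0.50). Its level was 1.77 to 10.5 CPM in HG+ORG horns and 1.76 to 4.95 CPM in HG horns. The log2 fold was 0.30 (SE 1.31) for Col1a1, −0.05 (SE 1.26) for Col3a1, −1.08 (SE 1.24) for Col4a1 and −1.39 (SE 1.18) for Col6a1. The median collagen log2 fold was −0.10 without HG replicate 14, the highest value when 1 horn at a time was left out.

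Leaving out HG+ORG replicate 18 changed this comparison. Then 8 of 39 collagens had a log2 fold above 0 (51.1% of all features), the median log2 fold was −2.37, and 17 collagens had an unadjusted p under 0.05 (12.0% of all features). None was called at the adjusted threshold (0.0% of all features). The log2 fold was −2.37 for Col1a1, −2.37 for Col3a1, −4.15 for Col4a1 (edgeR adjusted p 0.177), −3.09 for Col6a1 and −3.86 for Col15a1 (edgeR adjusted p 0.196). It was 0.55 for Col14a1 and 0.42 for Col11a2. Markers of other cell types moved beside these values. Without that horn, 13 of 14 smooth muscle markers had an unadjusted p under 0.05 and a log2 fold below 0 (median −3.41), as did 12 of 13 endothelial markers (median −3.50) and 7 of 8 pericyte markers (median −3.38). The smooth muscle sum was 37.8 to 320 CPM in these 5 HG+ORG horns, against 136 to 3842 CPM in HG horns. With all horns and the mean smooth muscle level as a covariate, 23 collagens had a log2 fold above 0 and the median was 0.52, and with limma-voom 4 did and the median was −1.41. With the covariate the log2 fold was 2.67 for Col1a1, 1.67 for Col3a1, 0.89 for Col6a1, −0.35 for Col4a1 and −1.1 for Col4a3. The covariate fit was not run without HG+ORG replicate 18, which had 3714 CPM of Col1a1 beside a muscle sum of 558 CPM.

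HG+ORG against PBS compares the hydrogel with organoids to saline. Of 39 collagens, 25 had a log2 fold above 0 (55.3% of all features), with a median log2 fold of 0.32 against 0.05 over all features. Unadjusted p was under 0.05 for 3 collagens (6.09% of all features). All 10 fibrillar genes had a log2 fold above 0, with a median of 1.30. Col4a3 had a log2 fold of −1.40 (SE 0.57, edgeR adjusted p 0.759) and Col11a2 one of 0.91 (SE 0.40, edgeR adjusted p 0.807). The Col4a3 fold was −0.68 without PBS replicate 10. Its median level was 1.085 CPM in HG+ORG horns and 1.007 CPM in PBS horns. Without HG+ORG replicate 18, 8 collagens had a log2 fold above 0 (50.6% of all features), the median was −0.94 and 2 had an unadjusted p under 0.05 (2.77% of all features), with none called (0.0% of all features). The log2 fold of Col1a1 was 1.52 with that horn and −1.15 without it. Among the other fibrillar genes it was then −1.06 for Col1a2, −0.79 for Col3a1, −1.60 for Col5a1, −0.54 for Col5a2 and −1.08 for Col5a3. It was −0.94 for Col11a1 and −1.51 for Col27a1, and above 0 for Col24a1 (0.92) and Col11a2 (0.53). Without that horn, 12 of 13 endothelial markers (median −2.80) had an unadjusted p under 0.05 and a log2 fold below 0. So did 5 of 14 smooth muscle markers (median −2.20).

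HG against PBS asks what the hydrogel adds to saline. Here 34 of 39 collagens had a log2 fold above 0 (53.0% of all features) and the median log2 fold was 0.98, against 0.02 over all features. Unadjusted p was under 0.05 for 1 collagen (3.37% of all features). That gene was Col22a1, a FACIT collagen of muscle and tendon junctions, with a log2 fold of 3.27 (SE 1.34, edgeR adjusted p 0.991). It had 16.9 CPM in HG replicate 14 and at most 0.966 CPM in the other HG horns, against at most 0.606 CPM in PBS horns, and without that horn it did not pass the filter on low counts. Col12a1 had the smallest p of the log2 folds below 0, at −1.28 (SE 0.81, edgeR adjusted p 0.991). Its fold was −0.49 without PBS replicate 8, which had 122 CPM against 12.7 to 35.5 CPM in the other PBS horns. Without PBS replicate 10 the median collagen fold was 2.71. That horn was the only PBS horn with a collagen share above 0.4%.

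PBS against SHAM compares damaged horns given saline with the sham group. Of 39 collagens, 34 had a log2 fold above 0 (53.6% of all features) and the median log2 fold was 0.81, against 0.02 over all features. Unadjusted p was under 0.05 for 0 collagens (2.17% of all features). The smallest p values were those of Col4a3, at 1.14 (SE 0.56), and Col10a1, a network collagen of growth cartilage, at −1.73 (SE 0.99), both with an edgeR adjusted p of 0.9995. Col4a3 had a median of 1.01 CPM in PBS horns and 1.04 CPM in SHAM horns, with 3.10 and 6.35 CPM in PBS replicates 8 and 10. Col10a1 had 70 reads in SHAM replicate 3 and at most 12 in the other SHAM horns, against 2 to 10 in PBS horns. In the same comparison 9 of 14 smooth muscle markers had a log2 fold above 0 and an unadjusted p under 0.05 (median 2.34). So did 6 of 13 endothelial markers (median 2.40). The endothelial sums were 764, 25.2, 14.15, 925 and 42.6 CPM in PBS replicates 7 to 11, with a median of 42.6 CPM against 93.1 CPM in SHAM horns. The smooth muscle sums were 691, 58.1, 34.3, 1892 and 125 CPM in the same horns, with a median of 125 CPM against 116 CPM in SHAM horns. With the smooth muscle covariate 15 collagens had a log2 fold above 0 and the median was −0.52, and with limma-voom 18 did and the median was −0.0914. Without PBS replicate 10, 15 collagens had a log2 fold above 0 and the median was −0.32. The fold of Col1a1 was then −0.88 and that of Col6a1 −1.09. The group means of log2 CPM, which give less weight to a single high horn, put Col1a1 at 5.04 ± 3.84 in PBS horns (SD, n = 5) and 5.89 ± 1.41 in SHAM horns (SD, n = 6).

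HG against SHAM had the median collagen log2 fold farthest from 0 of the 6 comparisons with all horns in the fit, although the median was farther from 0 in HG against PBS without PBS replicate 10 and, below 0, in HG+ORG against HG without HG+ORG replicate 18. Of 39 collagens, 34 had a log2 fold above 0 (50.2% of all features), and the median log2 fold was 2.33, against 0.00 over all features. Unadjusted p was under 0.05 for 18 collagens, 17 higher and 1 lower (11.3% of all features). All 10 fibrillar genes had a log2 fold above 0 with a median of 2.83, as did all 6 type VI genes with a median of 2.71 and all 6 type IV genes with a median of 0.85. The log2 fold was 2.83 (SE 1.40, edgeR adjusted p 0.456) for Col1a1 and 2.95 (SE 1.32, edgeR adjusted p 0.399) for Col4a1. Col4a5 had 0.05 (SE 0.39) and Col14a1 −0.22 (SE 0.41). Col24a1, a minor fibrillar chain, had the smallest p, with a log2 fold of 5.36 (SE 1.67, edgeR adjusted p 0.254), and DESeq2 called it (5.59, adjusted p 0.0313). It had 0 or 1 read in each SHAM horn, and 2, 39, 132, 0, 27 and 1 reads in HG replicates 12 to 17, so the size of its fold depends on the prior count. Col10a1 was the gene with the lower level, at −2.23 (SE 0.97, edgeR adjusted p 0.373).

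The smooth muscle, endothelial and stromal markers stood beside these collagen values. In HG against SHAM, all 14 smooth muscle markers had a log2 fold above 0 and an unadjusted p under 0.05 (median log2 fold 3.56), as did 12 of 13 endothelial markers (median 2.95), and 8 of 11 stromal markers (median 2.53). With the mean smooth muscle level as a covariate, the median collagen log2 fold of HG against SHAM was 0.35. The log2 fold was then −0.75 for Col1a1, −0.07 for Col3a1 and −0.35 for Col6a1. In HG against PBS the median was 0.98 both with and without the covariate. It was 0.90 with it and 0.32 without it in HG+ORG against PBS, and 0.62 and 1.06 in HG+ORG against SHAM. All of these fits held HG+ORG replicate 18. HG replicate 12 had the lowest muscle sum of its group, 136 CPM, with 239 CPM of Col4a1 and 75.1 CPM of Col1a1, and HG replicate 15 had 301 CPM of muscle markers with 20.2 CPM of Col4a1 and 29.1 CPM of Col1a1. Both levels of Col1a1 were below the other 4 HG horns, which had 608 to 1050 CPM.

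HG+ORG against SHAM gave 27 of 39 collagens with a log2 fold above 0 (56.3% of all features) and a median log2 fold of 1.06, against 0.06 over all features. Unadjusted p was under 0.05 for 7 collagens, all higher (9.91% of all features), and 6 of these were fibrillar. Col24a1 had a log2 fold of 5.81 (SE 1.68, edgeR adjusted p 0.223), with 137, 1, 2, 31, 0 and 15 reads in HG+ORG replicates 18 to 23, and DESeq2 called it (6.08, adjusted p 0.0224). Col1a1 had 3.13 (SE 1.42, edgeR adjusted p 0.467), Col5a2 1.53 (SE 0.64, edgeR adjusted p 0.418) and Col10a1 −1.45 (SE 0.93). Without HG+ORG replicate 18, 18 collagens had a log2 fold above 0 (51.4% of all features), the median was −0.06, and 2 had an unadjusted p under 0.05 (3.44% of all features), with none called (0.0% of all features). Col1a1 was then at 0.48, Col5a2 at 0.22 and Col24a1 at 3.84. With all horns in limma-voom the median was 0.12.

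**Figure D5:**
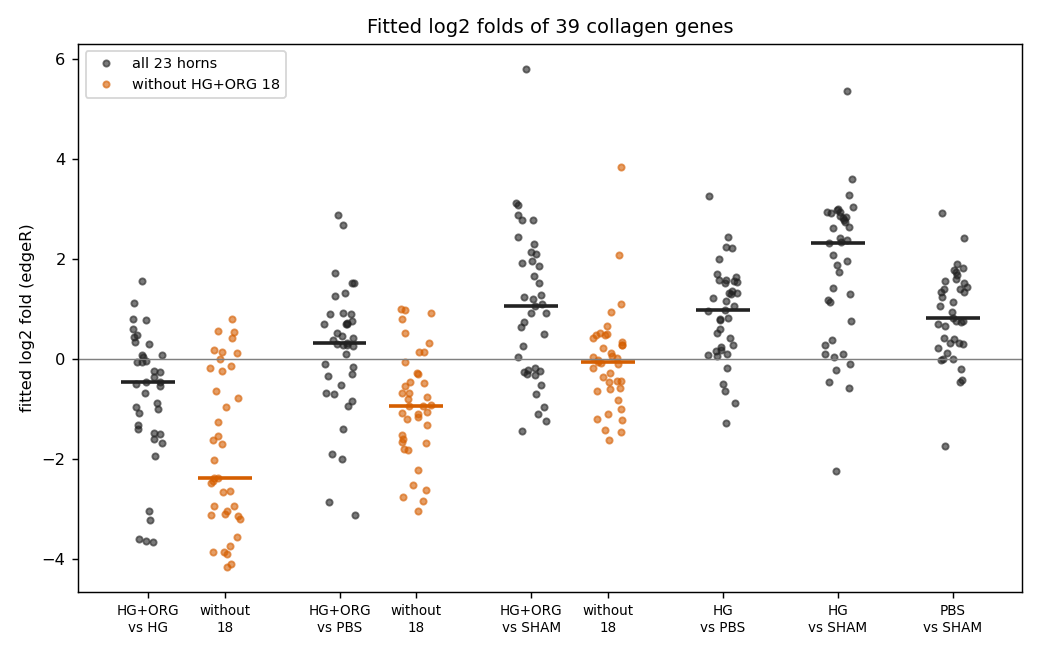
Fitted log2 fold (edgeR) of each of 39 collagen genes (points) with their median (lines) in the 6 comparisons, for all 23 horns (black) and without HG+ORG replicate 18 (orange). The median is −0.46 with that horn and −2.37 without it in HG+ORG against HG, and 2.33 in HG against SHAM.

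Ratios within a horn compare collagens without the total of the library. The log2 ratio of Col4a1 to Col1a1 was −2.43 ± 1.21 in HG+ORG horns (SD, n = 6), −0.73 ± 1.46 in HG horns (SD, n = 6), −0.91 ± 1.07 in PBS horns (SD, n = 5) and −1.13 ± 0.66 in SHAM horns (SD, n = 6). HG+ORG differed from SHAM by −1.29, with a two-sided exact permutation p of 0.0433, or 0.253 after adjustment over 12 ratio tests. HG+ORG differed from HG by −1.69 (exact permutation p 0.0541, adjusted 0.253) and from PBS by −1.52 (exact permutation p 0.0649, adjusted 0.253). The ranges overlapped, from −4.21 to −0.82 in HG+ORG horns, −2.14 to 1.67 in HG horns and −1.87 to −0.0040 in SHAM horns. None of the 12 tests passed the adjusted threshold. The log2 ratio of Col3a1 to Col1a1 was 0.31 ± 0.32 in HG+ORG horns (SD, n = 6), 0.85 ± 0.61 in HG horns (SD, n = 6), 0.36 ± 0.27 in PBS horns (SD, n = 5) and 0.53 ± 0.22 in SHAM horns (SD, n = 6). HG replicate 12 had the highest value, 1.82. The smallest exact p that these group sizes allow is 0.00216 for 6 against 6 horns.

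Genes that make, bind and break down collagen were described beside the family. None of them was called by edgeR in any comparison (0.0% of all features). Among all features, a log2 fold above 0 was found for 55.7% in HG+ORG against HG and 55.3% in HG+ORG against PBS. That share was 53.0% in HG against PBS, 53.6% in PBS against SHAM, 50.2% in HG against SHAM and 56.3% in HG+ORG against SHAM. Without HG+ORG replicate 18 it was 51.1, 50.6 and 51.4% in HG+ORG against HG, PBS and SHAM, in that order. The list of collagen processing and crosslinking enzymes held 30 tested genes of 31. In HG against SHAM, 21 of them had a log2 fold above 0, with a median log2 fold of 1.16. Unadjusted p was under 0.05 for 13 with a higher level and 1 with a lower level (11.3% of all features). P3h3, a prolyl hydroxylase family member, had 2.87 (SE 0.96, edgeR adjusted p 0.264), and Ppib, the cyclophilin of the collagen folding complex, had −0.33 (SE 0.15, edgeR adjusted p 0.416). In HG+ORG against HG, 15 of the 30 had a log2 fold above 0 and the median was −0.01 (−0.88 to 0.10 when 1 horn at a time was left out), with Tll1, which cleaves procollagen ends, at −2.16 (SE 0.84, edgeR adjusted p 0.364). Without HG+ORG replicate 18, 5 of 29 tested genes had a log2 fold above 0 in that comparison and the median was −0.88. The counts above 0 were 22 in HG+ORG against PBS (median 0.41), 24 in HG against PBS (median 0.79), 25 in PBS against SHAM (median 0.27) and 22 in HG+ORG against SHAM (median 0.60). Without HG+ORG replicate 18 they were 6 of 29 in HG+ORG against PBS (median −0.30) and 11 of 29 in HG+ORG against SHAM (median −0.12). Without PBS replicate 10 the count was 12 of 30 in PBS against SHAM (median −0.0606).

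Collagen receptors held 9 tested genes of 10. Itga1, an integrin subunit for collagen IV and I, had a log2 fold of 2.07 (SE 0.80, edgeR adjusted p 0.318) in HG against SHAM, where Ddr1, an epithelial collagen receptor kinase, had −0.98 (SE 0.46, edgeR adjusted p 0.424). Itga10 had 0.78 (SE 0.25, edgeR adjusted p 0.249) in HG+ORG against SHAM. Between 4 and 6 of the 9 receptors had a log2 fold above 0 in each comparison, and the medians lay between −0.11 and 0.78. The highest median, in HG+ORG against SHAM, was −0.17 without HG+ORG replicate 18, with 2 of 9 above 0. Without that horn 4 of 9 were above 0 in HG+ORG against PBS, with a median of −0.16, against 0.33 with it. Against HG, the HG+ORG median was −0.11 and ranged up to 0.15 when 1 horn at a time was left out. In PBS against SHAM the median was 0.33, and −0.0013 without PBS replicate 10.

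The degradation list, of proteases and their inhibitors, held 10 tested genes of 12. In HG+ORG against SHAM all 10 had a log2 fold above 0 (56.3% of all features) with a median of 2.43. Unadjusted p was under 0.05 for 6 of them (9.91% of all features). Ctsk, the collagen-cleaving cathepsin K, had a log2 fold of 7.74 (SE 1.91, edgeR adjusted p 0.209). In HG+ORG against HG, Mmp3, the protease stromelysin, had 5.66 (SE 1.83, edgeR adjusted p 0.281) and Timp3, a matrix-bound protease inhibitor, −1.65 (SE 0.72, edgeR adjusted p 0.448). The summed level of the list was 7193 CPM in HG+ORG replicate 18, against 268 to 549 CPM in the other HG+ORG horns, 406 to 563 CPM in HG horns, 426 to 632 CPM in PBS horns and 298 to 592 CPM in SHAM horns. The horn with the highest degradation sum was thus the horn with the highest macrophage sum. Without it, 7 of the 10 genes had a log2 fold above 0 against SHAM (51.4% of all features), with a median of 0.32. Unadjusted p was under 0.05 for 0 of them (3.44% of all features). Ctsk was then at 0.77 against SHAM, and Mmp3 at −0.81 and Timp3 at −1.97 against HG. With all horns, the number of degradation genes above 0 was 8 in HG+ORG against HG (median 1.70), 9 in HG+ORG against PBS (median 1.76), 6 in HG against PBS (median 0.56), 8 in PBS against SHAM (median 0.77) and 6 in HG against SHAM (median 1.84). Without HG+ORG replicate 18 it was 3 of 10 both in HG+ORG against HG (median −0.84) and in HG+ORG against PBS (median −0.35).

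The fibrosis regulator list held 18 tested genes, of which 15 had a log2 fold above 0 in HG+ORG against SHAM (median 0.77). Thbs1, which activates latent TGF-beta, had 3.49 there (SE 0.97, edgeR adjusted p 0.216), and its list summed to 6748 CPM in HG+ORG replicate 18 against 593 to 1187 CPM in the other HG+ORG horns. Without that horn the fold of Thbs1 was 0.11 against SHAM. In HG against SHAM, 13 of the 18 had a log2 fold above 0 (median 0.54), with Tgfb2, a growth factor of the TGF-beta family, at 2.66 (SE 0.84, edgeR adjusted p 0.258). The number of regulators above 0 was 11 in HG+ORG against HG (median 0.17), 16 in HG+ORG against PBS (median 0.44), 14 in HG against PBS (median 0.67) and 12 in PBS against SHAM (median 0.30). Without HG+ORG replicate 18 it was 5 of 18 in HG+ORG against HG (median −0.58), 7 of 18 in HG+ORG against PBS (median −0.0649) and 14 of 18 in HG+ORG against SHAM (median 0.19).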

How the data were processed

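Poly(A) RNA from 23 uterine horns was prepared with strand kept and read with 75 single-end cycles, per the labels' protocols. The authors deposited raw read counts per gene. The submitters' processing notes name build GRCm39 and R 4.3.1, DESeq2 1.42.1, featureCounts 2.0.3, SAMtools 1.21, HISAT2 2.2.1, Trimmomatic 0.39, MultiQC 1.27.1 and FastQC 0.11.9. No settings, annotation or use of strand are stated, so overlapping and antisense genes may share reads. Alignment to the mouse genome does not separate human organoid reads.

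Every feature had at least 10 counts in at least 3 libraries. The edgeR 4.0.16 quasi-likelihood test (R 4.3.3, limma 3.58.1) was fitted to all 4 groups with TMM factors after filterByExpr, which removed 974 features and left 17708. Its fold compares group means of counts, and SE is the absolute log2 fold divided by the square root of F. CPM used TMM-scaled library sizes, and log2 CPM a prior count of 2. Levels per kb used GENCODE vM21 transcript lengths (GRCm38, another build). Ratios were tested with exact permutations. Alternatives were DESeq2 1.42.0, limma-voom, other size factors and filters, a robust fit, only the groups compared, a smooth muscle covariate and leaving out each horn. The test was checked on simulated data. Members and gene lists were chosen with earlier results of these data known. Genes described in full were 15 collagens chosen by class and those with the smallest p in each direction of each comparison; other lists give the genes of smallest p. Horns were grouped by title.

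Markers of 3 further cell types had no gene called by edgeR. Their median summed levels in HG+ORG and SHAM horns were 45.8 and 42.3 CPM for Schwann cells, 228 and 257 CPM for squamous and basal epithelium, and 1161 and 1090 CPM for mesothelium.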

Additional observations from a re-analysis of the deposited data

Results flagged for a closer look

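In 92 groups of 5 or 6 horns tested for a single extreme value, 7 had one, and chance alone flags about 1 in 20. Collagen genes took 1.09% of counts in HG+ORG replicate 18 and 0.669% in PBS replicate 10, both far above the other horns of their group. Col8a1 was at 3.66 log2 CPM in HG+ORG replicate 18. Col22a1 was at 4.09 log2 CPM in HG replicate 14. Col4a1 and Col4a2 were at 4.35 and 3.70 log2 CPM in HG replicate 15, below the other HG horns. Col5a2 was at 3.54 log2 CPM in SHAM replicate 4, below the other SHAM horns.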

How the results depend on the processing

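No paired analysis was possible because no 2 groups share a replicate number. Over all features, DESeq2 called 162 genes in HG+ORG against HG, 1 in PBS against SHAM, 281 in HG against SHAM and 83 in HG+ORG against SHAM, of which 1 collagen, Col24a1, in each of the last 2, and edgeR on only the groups compared called 386 in HG against SHAM. The cause was not tested. With limma-voom the log2 fold was −1.36 for Col1a1 in HG+ORG against HG, 1.15 for Col6a1 in HG+ORG against PBS, −0.61 for Col4a1 in HG+ORG against SHAM, and −0.91, −1.06, −0.72 and −1.13 for Col1a1, Col3a1, Col4a1 and Col6a1 in PBS against SHAM. With the smooth muscle covariate it was 1.67 and 0.89 for Col3a1 and Col6a1 in HG+ORG against HG, 2.42 for Col6a1 in HG+ORG against PBS, −1.78, −1.92, −1.58 and −1.88 for Col1a1, Col3a1, Col4a1 and Col6a1 in PBS against SHAM, and −0.75, −0.0741 and −0.35 for Col1a1, Col3a1 and Col6a1 in HG against SHAM.

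The fits with the smooth muscle covariate were run with all horns only. Leaving out 1 horn at a time in the main fit kept the count of called genes at 0 in every comparison. In HG+ORG against HG the log2 fold ranged from −2.37 to 0.60 for Col1a1 and −2.37 to 0.23 for Col3a1. In HG+ORG against PBS it ranged from −1.15 to 4.01 for Col1a1, −0.79 to 3.59 for Col3a1, −2.61 to 2.15 for Col4a1 and −1.79 to 2.34 for Col6a1. In HG+ORG against SHAM it ranged from −1.19 to 2.30 for Col4a1 and −0.43 to 1.64 for Col6a1. In PBS against SHAM it ranged from −0.88 to 1.98 for Col1a1, −0.81 to 1.62 for Col3a1, −0.29 to 1.85 for Col4a1 and −1.09 to 1.74 for Col6a1. The log2 ratio of Col3a1 to Col1a1 ranged from −0.13 to 0.0447 in HG+ORG against PBS, and that of Col4a1 to Col1a1 from −0.31 to 0.46 in HG against PBS and −0.0817 to 0.68 in HG against SHAM. The low ends of the HG+ORG folds came without HG+ORG replicate 18, and those of PBS against SHAM without PBS replicate 10.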
